A study of Mus musculus with 40 samples.

Results

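The miR-101 family of the mouse hippocampus was followed in small RNA libraries from CamKIIδC TG mice and wild-type control mice aged 3 or 6 months. It holds 4 of the 1978 mature miRNAs in the counts: mmu-miR-101a-3p, mmu-miR-101a-5p, mmu-miR-101b-3p and mmu-miR-101c. The members were chosen by name, and where a miRNA is listed on several precursors the row was selected on its highest total count over all libraries. Each member has 1 precursor row, so these totals decided nothing further. The family itself was picked with results of these data already known. Over the 40 libraries, miR-101a-3p had 1624755 counts and ranked 41 of 1978, miR-101b-3p had 786934 counts and ranked 61, miR-101c had 19765 counts and ranked 266, and miR-101a-5p had 125 counts and ranked 796.

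A miRNA is cut from a hairpin-shaped precursor. One strand of the hairpin stem, the 5p or the 3p arm, is usually kept in the silencing complex while the other is degraded. The kept strand pairs with messenger RNAs mainly through its seed, bases 2 to 8 from the 5′ end, and lowers their translation or stability. miR-101 acts through its 3p arm. It is best known for targeting Ezh2, the methyltransferase of the Polycomb complex that marks histone H3 lysine 27, and App, the precursor of the amyloid beta peptide, and it is abundant in neurons.

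The sequences are shown because the 3 members of the 3p arm differ in where they start and so in their seed. They are RefSeq entries on GRCm38.p6, which holds all 4 members, and capitals mark the seed.
mmu-miR-101a-3p: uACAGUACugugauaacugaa
mmu-miR-101b-3p: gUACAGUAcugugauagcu
mmu-miR-101c: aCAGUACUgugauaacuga
mmu-miR-101a-5p: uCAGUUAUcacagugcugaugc
miR-101b-3p starts 1 base before miR-101a-3p. Of the 18 bases in which they overlap 17 match, and the exception is A16G, counted from the 5′ end of miR-101a-3p with its base given before the position. miR-101c is contained whole in miR-101a-3p, from base 2 to base 20, so a miR-101c read cannot be told apart from a miR-101a-3p read that starts 1 base late and is trimmed at its end. The GC content of the mature sequence is 33.3% for miR-101a-3p, 36.8% for miR-101c and 42.1% for miR-101b-3p.

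The loci lie on 3 chromosomes. The hairpin of Mir101a, at chr4:101346945-101347027 on the minus strand, overlaps an exon of the long non-coding RNA gene E130102H24Rik, and its mature arms lie at chr4:101346957-101346977 for miR-101a-3p and chr4:101346993-101347014 for miR-101a-5p. The hairpin of Mir101b, at chr19:29135279-29135375 on the plus strand, lies in an intron of Rcl1, and miR-101b-3p lies at chr19:29135338-29135356. The 2 hairpins are shown to place the arms, with the annotated mature arms in capitals.
Mir101a: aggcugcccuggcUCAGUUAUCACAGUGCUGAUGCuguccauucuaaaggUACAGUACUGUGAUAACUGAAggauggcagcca
Mir101b: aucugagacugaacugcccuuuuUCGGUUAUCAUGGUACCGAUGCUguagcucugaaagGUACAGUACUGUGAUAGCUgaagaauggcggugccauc
miR-101c is placed at chr9:3038680-3038698 on the minus strand, inside the annotated gene Mir101c at chr9:3038669-3038743. The 75-base transcript of Mir101c does not hold the whole 21-base miR-101a-3p, and the longest run they share is 19 bases.

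The transgene of CamKIIδC TG mice is calcium/calmodulin-dependent protein kinase IIδC, whose overexpression makes them a model of heart failure. TG mice and wild-type littermates had a C57Bl/6J background, both sexes were used, and RNA came from the CA1 region of the hippocampus. The groups were 5 wild-type and 9 TG mice at 3 months, and 15 wild-type and 11 TG mice at 6 months, with 1 library per mouse. These numbers follow the sample titles. For its small RNA data the study gives other numbers of TG mice at both ages, and also another total of TG mice. Which libraries account for this is not given in the sources used here. For wild-type mice 1 and 2 at 3 months, the genotype field reads TG, against the title by which they were grouped. The sex of single mice, the day of sequencing and the batch are not given in the sources used here, so that age and a sequencing batch cannot be told apart.

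Total counts ranged from 2656368 to 36547011, with a median of 22455957 in wild-type and 29499287 in TG mice at 3 months, and of 14908612 and 13894826 at 6 months. The GC content of the miRNA reads also differed with age. It was calculated as the mean GC content of the mature sequences, weighted by count, over the miRNAs with a sequence. It therefore follows from the miRNA profile of a library and was not measured on the reads themselves. It was 43.1% to 43.8% in 11 of the 14 libraries of 3-month-old mice and 44.3% to 46.9% in the 26 libraries of 6-month-old mice. The 3 remaining 3-month libraries, from wild-type mice 1 and 5 and TG mouse 8, stood apart from their group at 45.2% to 45.6% and had totals of 12006095 to 14052092, so the tests of the 3 abundant members and of the ratios that use 3-month-old mice are also given without them. In summed CPM each list of markers of other cell types lay below the neuronal list. Single markers did not all follow this: over all libraries vascular miR-126a-3p had 3763300 counts, against 1967489 for neuronal miR-124-3p and 71436961 for miR-128-3p. The summed CPM of the 6 neuronal miRNAs, which none of the libraries lacked, ranged from 172581 to 320648 in 3-month-old TG mice and from 202222 to 365936 in 6-month-old TG mice. Tissue RNA cannot tell fewer cells of a type from less RNA per cell.

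miR-101a-3p was the most abundant member in each of the 40 libraries. Levels are given as CPM, the count divided by the miRNA total of the library in units of 1e6 counts, after TMM scaling between libraries. This total leaves out spike-ins and the additional precursors of a miRNA, and was 1926108 to 22892729 counts. In 3-month-old wild-type mice 1 to 5 it measured 2116, 4329, 4782, 3583 and 1359 CPM. In 3-month-old TG mice the lowest, median and highest values were 3418, 4151 and 5557 CPM. At 6 months they were 1341, 2417 and 6289 CPM in wild-type mice and 1572, 2460 and 3808 CPM in TG mice. The wild-type groups were the more scattered, with a coefficient of variation of 48.8% at 6 months against 22.9% in TG mice. The group means followed the order 3-month-old TG (4206 ± 676 CPM, SD, n = 9), 3-month-old wild-type (3234 ± 1456, n = 5), 6-month-old wild-type (2736 ± 1334, n = 15) and 6-month-old TG (2572 ± 588.5, n = 11). Each mean differed from its neighbour in this order by less than the larger SD of the pair.

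miR-101b-3p, from the locus in Rcl1, measured 1261, 1749, 2031, 1605 and 763 CPM in 3-month-old wild-type mice 1 to 5. The lowest, median and highest values were 1431, 1774 and 2578 CPM in 3-month-old TG mice, 907.5, 1311 and 3181 CPM in 6-month-old wild-type mice, and 957, 1636 and 2597 CPM in 6-month-old TG mice. The means were 1482 ± 488, 1839 ± 339.5, 1503 ± 623 and 1606 ± 404 CPM (SD, n = 5, 9, 15 and 11) in the same order of groups, and the 4 ranges overlapped. miR-101c was near 1% of miR-101a-3p throughout, with means of 38.3 ± 13.0, 49.6 ± 7.03, 33.6 ± 15.4 and 32.1 ± 7.93 CPM.

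**Figure D1:**
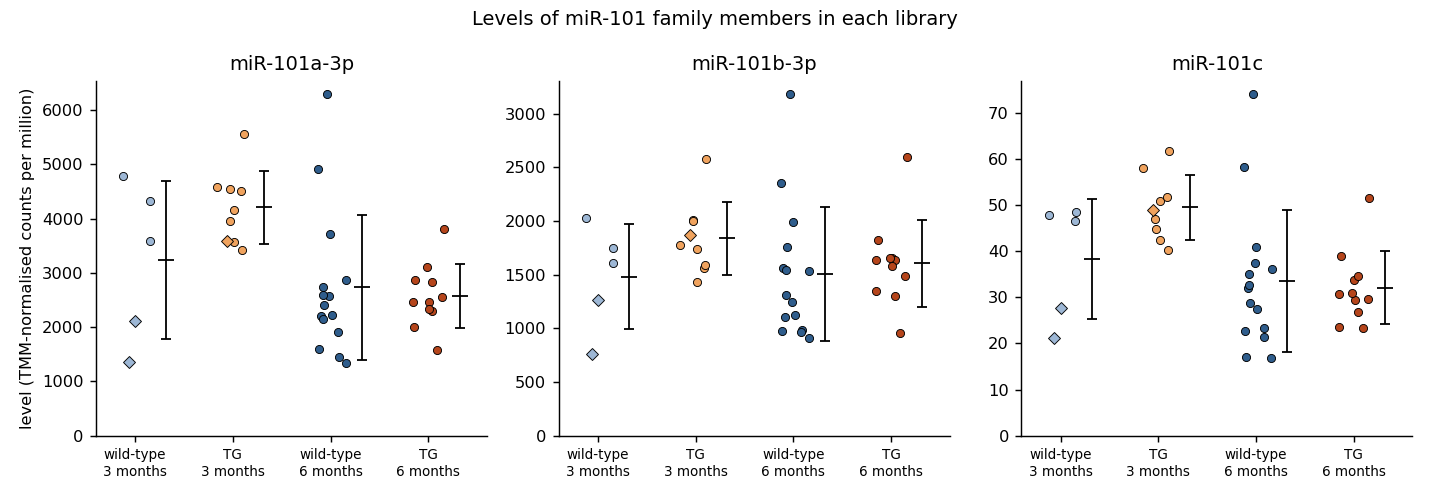
Levels of miR-101a-3p, miR-101b-3p and miR-101c in CPM (vertical axes, from 0) in the 4 groups, 1 point per library, with the mean and SD beside each group. Diamonds are the 3 libraries of 3-month-old mice with more than 45% GC in their miRNA reads. For miR-101a-3p, 10 of the 11 libraries of 6-month-old TG mice lie below the lowest library of 3-month-old TG mice at 3418 CPM.

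Between 3 and 6 months, miR-101a-3p and miR-101c fell in TG mice and miR-101b-3p did not pass the test. Of the 629 miRNAs tested in TG mice, 15.7% were called altered in either direction and 8.27% were called lower at 6 months, where a call needed a log2FC beyond 0.26 in either direction and an adjusted p under 0.05. Against that background 2 of the 3 members tested were called, both lower. They are not separate observations, since the sequence of miR-101c is part of miR-101a-3p. miR-101a-5p was too rare to be tested in any comparison. The median log2FC of all miRNAs tested was -0.09.

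The level of miR-101a-3p in 6-month-old TG mice 1 to 11 was 3808, 2460, 2874, 2837, 1572, 2295, 2551, 2455, 2328, 3106 and 2001 CPM. In 3-month-old TG mice 1 to 9 it was 3953, 5557, 4543, 4151, 4584, 4501, 3570, 3582 and 3418 CPM. The groups overlapped only through 6-month-old mouse 1, and 11 of 11 older mice were below the mean of the younger mice. The log2FC was -0.69 (SE 0.14, 6 over 3 months) and the level fell by 38.2%, with an adjusted p of 0.00211 in edgeR's quasi-likelihood test. Leaving out the 3-month-old TG mouse that stood apart in read GC content gave a log2FC of -0.72 and an adjusted p of 0.00145.

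miR-101c fell with it, with a log2FC of -0.61 (SE 0.15, adjusted p = 0.00728 in edgeR). Its lowest, median and highest levels were 40.2, 49.0 and 61.7 CPM at 3 months and 23.4, 30.6 and 51.6 CPM at 6 months, and 10 of 11 older mice were below the lowest younger mouse. Without 3-month-old TG mouse 8 the log2FC was also -0.61 (adjusted p = 0.00771 in edgeR). Since its sequence is part of miR-101a-3p, its fall is not a separate observation.

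miR-101b-3p had a log2FC of -0.18 in the same mice (SE 0.15, adjusted p = 0.416 in edgeR), with an interval of 1.96 standard errors on each side from -0.47 to 0.12. Older and younger TG mice overlapped over most of their range. Of the 11 older mice 10 were below the mean of the younger mice, 3 were below the lowest younger mouse and 1 was above the highest. Without 3-month-old TG mouse 8 the log2FC was -0.17.

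**Figure D2:**
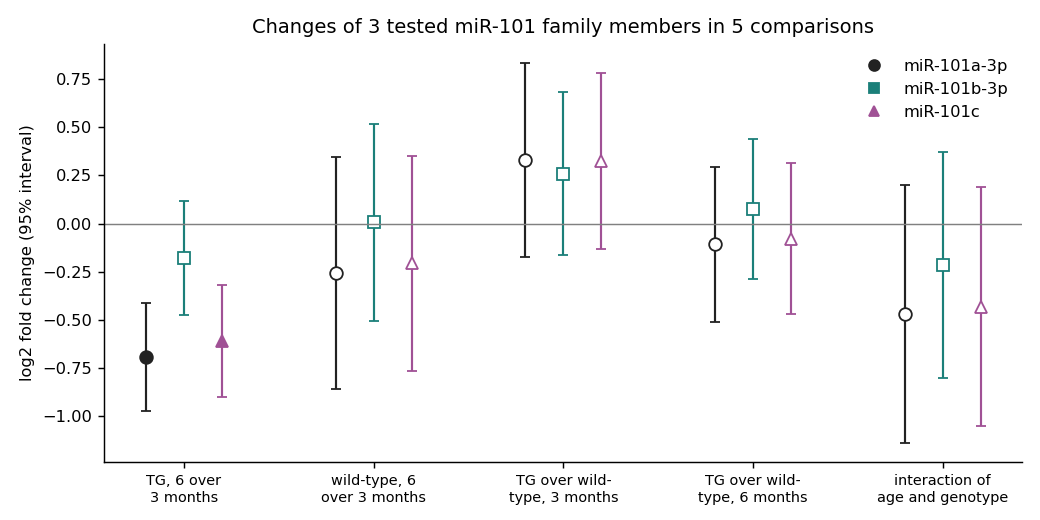
Log2 fold change (vertical axis) of miR-101a-3p, miR-101b-3p and miR-101c in 5 comparisons, with intervals of 1.96 standard errors on each side. Filled symbols passed the test, which were miR-101a-3p at -0.69 and miR-101c at -0.61 in TG mice between 3 and 6 months, and open symbols did not.

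The call of miR-101a-3p depended on the treatment of base composition. When each library was corrected for a smooth trend of level with the GC content of the mature sequence, the log2FC of miR-101a-3p was -0.49 with an adjusted p of 0.120 and that of miR-101c was -0.46 with an adjusted p of 0.0925, so both lost their call. The log2FC of miR-101b-3p was -0.16 under this correction. Across the 541 tested miRNAs with a sequence, the Spearman correlation of GC content with log2FC in TG mice was 0.15. The 39 miRNAs with at most 35% GC, miR-101a-3p among them, had a median log2FC of -0.27. The part of base composition in the fall of miR-101a-3p was not tested further. Over the other 16 alternatives, each of which kept the call, the log2FC of miR-101a-3p ranged from -0.84 to -0.63. Among libraries with totals of 12000000 to 26000000 counts, 4 at 3 months and 8 at 6 months, it was -0.75 with an adjusted p of 0.0239, while miR-101c lost its call with an adjusted p of 0.0689.

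**Figure D3:**
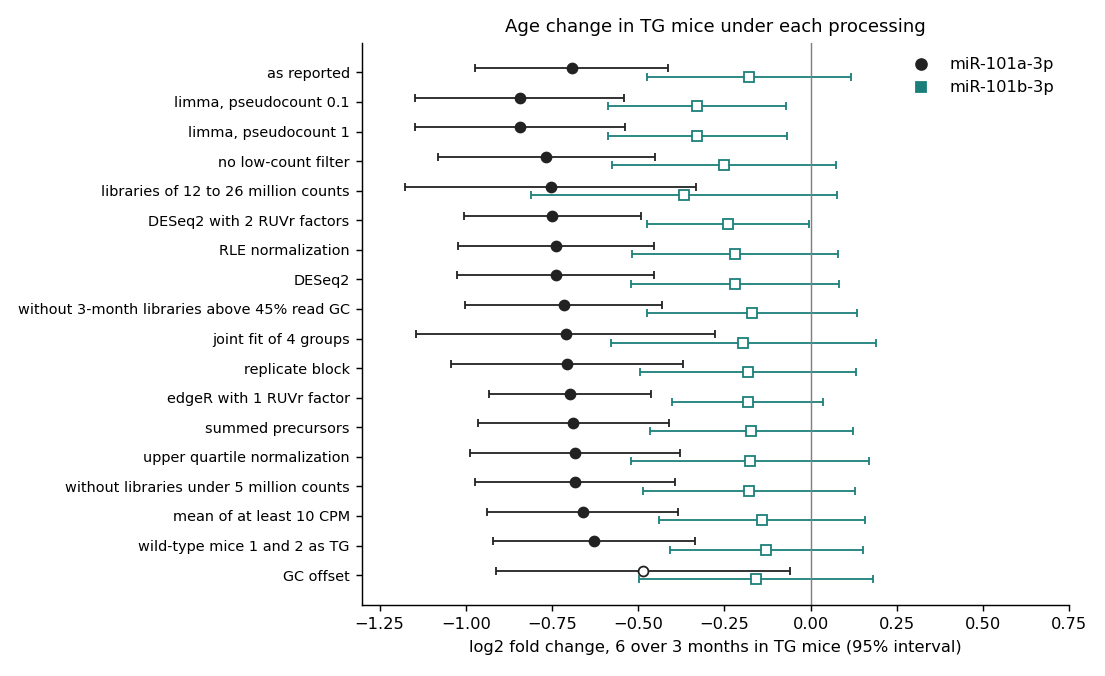
Log2 fold change of miR-101a-3p (circles) and miR-101b-3p (squares) between 3 and 6 months in TG mice, with intervals of 1.96 standard errors on each side, as reported and under 17 other ways of processing. Filled symbols passed the test. miR-101a-3p lies between -0.84 and -0.49, and its only open symbol is the correction for GC content.

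The 2 abundant members were next compared within each library, where their ratio needs no scaling for depth. In TG mice the ratio moved towards miR-101b-3p with age. At 3 months, TG mice 1 to 9 had 50.9, 46.4, 44.0, 41.8, 38.7, 34.7, 40.1, 52.1 and 46.5 counts of miR-101b-3p per 100 counts of miR-101a-3p. At 6 months, TG mice 1 to 11 had 68.2, 67.1, 63.5, 57.8, 60.9, 56.7, 58.1, 66.6, 67.8, 53.2 and 67.3. The groups did not overlap, and 11 of 11 older mice were above the highest younger mouse. The mean log2 ratio rose by 0.51, with a two-sided exact permutation p of 1.19e-05, the smallest these group sizes allow, and 9.53e-05 after Benjamini-Hochberg adjustment over the 8 ratio tests made. Without 3-month-old TG mouse 8 the difference was 0.55, and among libraries of 12000000 to 26000000 counts it was 0.37 with an exact permutation p of 0.00404.

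In wild-type mice the ratio differed with age in the same direction and did not pass. It was 59.6, 40.4, 42.5, 44.8 and 56.2 in 3-month-old mice 1 to 5, and ranged from 47.9 over a median of 53.3 to 72.6 in the 15 older mice. The difference in mean log2 ratio was 0.23 (exact permutation p = 0.0571, adjusted p = 0.152). The younger mice with the high ratios, 1 and 5, were those with a high GC content of their reads. Without them the difference was 0.40, with an exact permutation p of 0.00245 (adjusted p = 0.0098 over the 8 ratio tests). This exact p is the smallest that these group sizes allow. The subset was chosen after the data were examined, and it leaves out the highest ratios of the younger mice. No conclusion is drawn from its p.

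The ratio was also set beside the read GC content of the library. The 3 libraries of 3-month-old mice above 45% GC had the highest ratios of that age, 52.1 to 59.6, against 34.7 to 50.9 in the other 11. The 26 libraries of 6-month-old mice, all above 44% GC, had ratios of 47.9 to 72.6. Among these 26 the ratio was 50.4 to 68.1 in the 13 libraries at or below 45% GC and 47.9 to 72.6 in the 13 above it, with medians of 56.1 and 63.5 and overlapping ranges. This split pools TG and wild-type mice in unequal proportions. By genotype the medians at 6 months were 63.5 in TG and 53.3 in wild-type mice, so the split does not separate read GC content from genotype. The 2 members are part of the counts from which the GC content was calculated, and the part of base composition in the ratio was not tested.

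**Figure D4:**
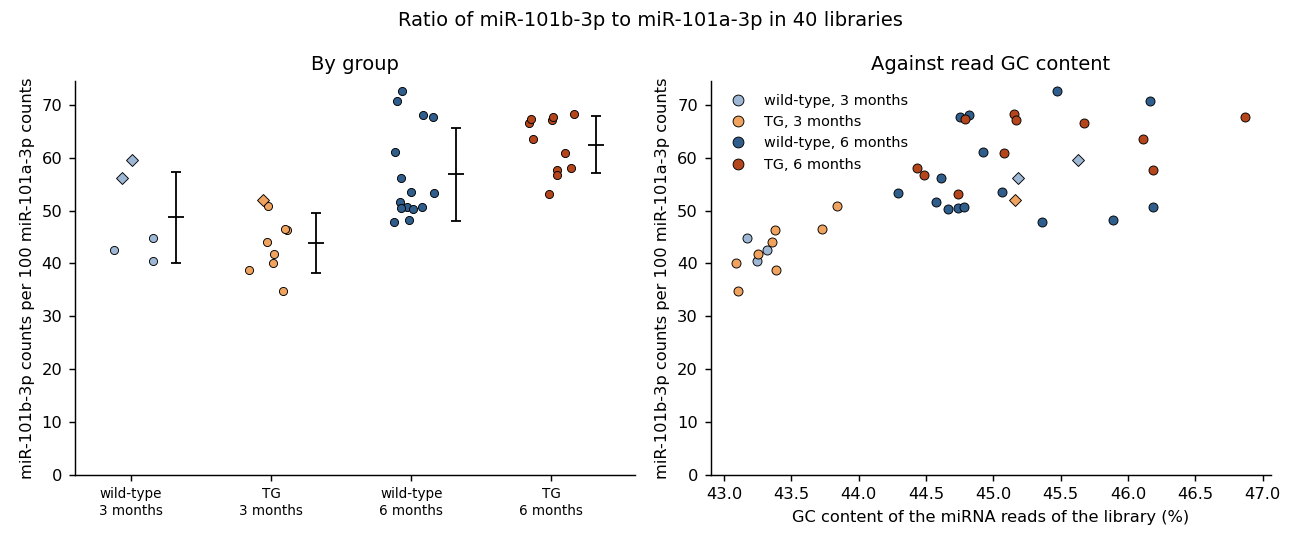
Counts of miR-101b-3p per 100 counts of miR-101a-3p in 40 libraries (vertical axes, from 0), by group with mean and SD on the left and against the GC content of the miRNA reads on the right. Diamonds are the 3 libraries of 3-month-old mice above 45% GC. TG mice lie between 34.7 and 52.1 at 3 months and between 53.2 and 68.2 at 6 months.

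The difference in age change of the ratio between TG and wild-type mice was 0.29 on the log2 scale, with an exact permutation p of 0.0408 when genotypes were exchanged within each age. It rested on single libraries: the p was at or above 0.05 in 17 of the 40 fits that left out 1 mouse. It was 0.127 without 3-month-old wild-type mouse 1, 0.109 without wild-type mouse 5, and 0.271 without the 3 libraries of high read GC content. This test was chosen after the data were examined.

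In wild-type mice, no member passed the test between 3 and 6 months. The log2FC was -0.25 for miR-101a-3p (SE 0.31, adjusted p = 0.718 in edgeR), 0.01 for miR-101b-3p (SE 0.26, adjusted p = 0.988) and -0.21 for miR-101c (SE 0.28, adjusted p = 0.759). Of 660 miRNAs tested 1 was called, or 0.152%, and this was miR-3535 (log2FC -1.55, adjusted p = 0.0244 in edgeR). For miR-101a-3p, 12 of 15 older mice were below the mean of the younger mice, but only 1 was below the lowest, and the interval of its change, from -0.86 to 0.35, includes the size of the fall in TG mice. Without 3-month-old wild-type mice 1 and 5, the log2FC was -0.65 for miR-101a-3p (adjusted p = 0.229 in edgeR), -0.27 for miR-101b-3p and -0.52 for miR-101c (adjusted p = 0.331 in edgeR), and 46 miRNAs were called.

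The age change of the members was not shown to differ between TG and wild-type mice. The interaction of age and genotype in edgeR had a log2FC of -0.47 for miR-101a-3p (SE 0.34), -0.22 for miR-101b-3p (SE 0.30) and -0.43 for miR-101c (SE 0.32), each with an adjusted p of 0.986. Of 699 miRNAs tested in edgeR none, 0%, was called, 14 had an unadjusted p under 0.05, and DESeq2 without factors and limma also called 0. Without the 3 libraries of high read GC content the interaction was -0.11 for miR-101a-3p, 0.07 for miR-101b-3p and -0.13 for miR-101c.

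TG and wild-type mice of the same age were compared to see whether the members differ with genotype. At 3 months the log2FC of TG over wild-type was 0.33 for miR-101a-3p (SE 0.26), 0.26 for miR-101b-3p (SE 0.21) and 0.33 for miR-101c (SE 0.23), each with an adjusted p of 0.998 in edgeR. 9 of 9 TG mice were above the wild-type mean of miR-101a-3p, but 3 were below the wild-type median, and 1 was above the highest wild-type mouse. Of 695 miRNAs tested in edgeR none, 0%, was called, 7 had an unadjusted p under 0.05, and DESeq2 without factors and limma also called 0. DESeq2 with 2 factors of unwanted variation called miR-101a-3p (log2FC 0.49, adjusted p = 0.0392) and miR-101c (0.43, adjusted p = 0.0483) among 84 miRNAs. Without the 3 libraries of high read GC content the edgeR log2FC was -0.03 for miR-101a-3p, -0.02 for miR-101b-3p and 0.01 for miR-101c, so the values of all 3 lay near 0.

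At 6 months the log2FC was -0.11 for miR-101a-3p (SE 0.21), 0.08 for miR-101b-3p (SE 0.19) and -0.08 for miR-101c (SE 0.20), each with an adjusted p of 0.992 in edgeR. The ranges of TG mice lay inside those of wild-type mice for each of the 3. Of 612 miRNAs tested in edgeR none, 0%, was called, 3 had an unadjusted p under 0.05, and DESeq2 without factors and limma also called 0. The ratio of miR-101b-3p to miR-101a-3p did not pass between genotypes at either age, with differences in mean log2 ratio of -0.14 at 3 months (exact permutation p = 0.246) and 0.15 at 6 months (permutation p = 0.0566 with 100000 resamples, adjusted p = 0.152). Without the 3 libraries of high read GC content the difference at 3 months was 0.0034.

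miR-101a-5p, the other arm of the Mir101a hairpin, was hardly detected. It had 0 counts in 13 of 40 libraries and at most 20 counts, in 3-month-old wild-type mouse 2. Over all libraries it made up 0.00769% of the counts of both arms (exact 95% interval 0.0064 to 0.00917, counting error only). By group it was 0.0108% in 3-month-old wild-type mice (0.00732 to 0.0153), 0.00659% in 3-month-old TG mice (0.00483 to 0.00879), 0.0087% in 6-month-old wild-type mice (0.00595 to 0.0123) and 0.00589% in 6-month-old TG mice (0.00337 to 0.00956), and the 4 intervals overlap. Of the 31 counts in 3-month-old wild-type mice 20 came from mouse 2, and without it their share was 0.00629% (0.00314 to 0.0113), which was no longer the highest of the 4. None of the 4 tests of the ratio of arms passed with 0.5 added to each count, with permutation p from 0.175 to 0.777, exact in 3 of them. The result depended on the added count: between the ages in TG mice the log2 difference of 3p over 5p was -0.16 with 0.5 added and -1.18 with 5 added, which passed (exact permutation p = 0.00255, adjusted p = 0.0102). The median count of miR-101a-5p was 2, so with 5 added the ratio largely follows the miR-101a-3p count, which rises with the library total. Median library totals in TG mice were 29499287 at 3 months and 13894826 at 6 months. The pass with 5 added is therefore not read as a change between arms. With 0.5 added the difference was -0.17 without 3-month-old TG mouse 8, and in wild-type mice 0.38 became -0.46 without 3-month-old mice 1 and 5. Between TG and wild-type mice at 3 months 1.03 became 0.21 without the 3 libraries of high read GC content. On the scaled CPM used here 3 counts, taken as the floor, are worth 0.0956 to 2.32 CPM depending on the library, and 12 of 40 libraries held more than 3 counts of miR-101a-5p. miR-101b-5p, listed in the counts but not among the 4 members, had 6 counts in all and 0 in 35 libraries.

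miR-101c followed miR-101a-3p closely in count. It amounted to 0.772% to 1.55% of the miR-101a-3p count in the 40 libraries, with a median of 1.22%. By group, the median was 1.30% in wild-type and 1.18% in TG mice at 3 months, and 1.23% and 1.25% at 6 months.

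**Figure D5:**
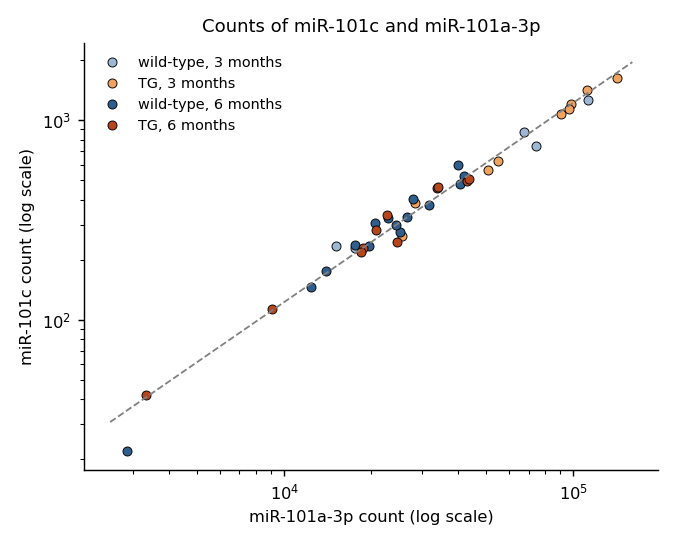
Counts of miR-101c (vertical axis) against counts of miR-101a-3p (horizontal axis) in 40 libraries, both on log scales. The dashed line marks the median share of 1.22%, and the library farthest below it, from 6-month-old wild-type mouse 5, holds 22 counts of miR-101c.

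A search for the seed of miR-101a-3p or of miR-101b-3p in the first 9 bases of all 1679 miRNAs with a RefSeq sequence found these 3 members of the 3p arm and miR-144-3p, a miRNA of red blood cells.
mmu-miR-144-3p: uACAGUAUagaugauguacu
Its seed, in capitals, differs from that of miR-101a-3p at the last base, C8U counted from the 5′ end. miR-144-3p was rare, with 1.59 to 6.47 CPM in 3-month-old and 0 to 2.53 CPM in 6-month-old TG mice, and fell with a log2FC of -0.98 (SE 0.31, adjusted p = 0.0335 in edgeR). The other erythroid miRNAs did not share 1 direction: miR-451a rose (log2FC 0.68, adjusted p = 0.0067 in edgeR) and miR-486a-3p fell (-2.14, adjusted p = 0.000561 in edgeR). miR-144-5p (-0.44, adjusted p = 0.394 in edgeR) and miR-486a-5p (-0.02, adjusted p = 0.973 in edgeR) did not pass.

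The miRNAs whose log2 CPM followed miR-101a-3p most closely over the 40 libraries, among 361 with a mean of at least 10 CPM, were miR-101c (Pearson r = 0.94), miR-101b-3p (0.89), miR-598-3p (0.82), miR-9-5p (0.79) and miR-3535 (0.75). For miR-101b-3p they were miR-101a-3p (0.89), miR-9-5p (0.82), miR-101c (0.81), miR-598-3p (0.78) and miR-148b-3p (0.78). After subtraction of the group means, miR-101b-3p was the closest to miR-101a-3p and the reverse, with r = 0.93, and miR-101c came next to miR-101a-3p with 0.92. These correlations are descriptions, since all points share the scaling and base composition of their library. miR-9-5p, a neuronal miRNA with a GC content of 34.8%, had a log2FC of -0.17 in TG mice between the ages (adjusted p = 0.308 in edgeR).

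Other miRNAs known to target the same genes as miR-101 were listed for Ezh2 and App, and their calls are read against the 15.7% called among all miRNAs tested in TG mice. Of 10 miRNAs listed for Ezh2, 9 were tested between the ages in TG mice, 7 had a lower estimate and 1 was called, miR-98-5p of the let-7 family (log2FC -0.73, adjusted p = 0.0175 in edgeR), and the median log2FC was -0.43 against -0.09 for all miRNAs. miR-26b-5p stood at -0.58 (adjusted p = 0.0596 in edgeR) and miR-26a-5p at 0.15 (adjusted p = 0.482). Of 6 miRNAs listed for App, 5 were tested, 5 had a lower estimate, 0 were called, and the median was -0.55. With 9 and 5 members tested, 1 and 0 calls are near the share among all miRNAs. In wild-type mice neither list had a call, and their medians were -0.12 and -0.26 against -0.02 for all miRNAs.

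Markers of the other cell types were also followed in the TG mice in which miR-101a-3p fell, where 15.7% of all miRNAs tested were called, and their part in that fall was not tested. Of 4 oligodendrocyte miRNAs 2 were called lower, and their summed level went from 1601 to 2828 CPM at 3 months to 1045 to 1863 CPM at 6 months. Both choroid plexus miRNAs, miR-204-5p (log2FC 0.89) and miR-211-5p (1.07), were called higher, with sums of 290 to 749 CPM and 638 to 1023 CPM. Of the 6 neuronal miRNAs 1 was called, miR-128-3p, which rose by a log2FC of 0.73. The list had a median log2FC of -0.17 with 4 of 6 lower, among them miR-124-3p at -0.66 (adjusted p = 0.102 in edgeR) and miR-137-3p at -0.69 (adjusted p = 0.209 in edgeR), which did not pass and had estimates close to that of miR-101a-3p. Of the 6 miRNAs of microglia and blood immune cells 1 was called lower, with sums of 337 to 579 CPM and 318 to 809 CPM. Of the 5 erythroid miRNAs 1 was called higher and 2 lower, with sums of 452 to 1462 CPM and 650 to 1217 CPM. Of the 4 vascular miRNAs 1 was called higher, with sums of 9582 to 16931 CPM and 13228 to 21004 CPM. Of the 4 heart muscle miRNAs 3 were tested and 1 was called lower, with sums of 626 to 1681 CPM and 387 to 882 CPM, and miR-208a-3p, which is particular to heart muscle, was at 0 in 39 of 40 libraries.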

How the data were processed

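Per the labels and the methods of the study, small RNA libraries of hippocampal CA1 RNA were made with the NEBNext kit, adapters were trimmed with cutadapt (2.8 in the submitters' processing notes), and reads were aligned to mm10 and counted with mirdeep2 and miRBase. The authors deposited raw, unscaled counts of 2128 combinations of miRNA and precursor, and RPM values, which match those counts scaled by library total to within 0.005. The 52 spike-in entries stayed out of all tests. Each of 1978 miRNAs was represented by its precursor row with the highest total.

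Each comparison was fitted over all miRNAs on its own groups with edgeR 4.0.16 (R 4.3.3): filterByExpr with a minimum count of 10 and a minimum total of 15, TMM and the robust quasi-likelihood test with Benjamini-Hochberg adjustment. A call needed a log2FC beyond 0.26 in either direction with an adjusted p under 0.05. Intervals are 1.96 SE on each side. Ratios used counts plus 0.5 and two-sided permutation tests in scipy 1.17.1, over all splits, or 100000 resamples where both groups held at least 10 mice. The alternatives were other normalizations, filters and tools (DESeq2 1.42.0, limma 3.58.1 on the log2 of the RPM values), RUVr factors, the replicate number as a block, the mice with conflicting labels, summed precursors, a GC offset and each mouse left out in turn. Alternatives by read GC content and depth, the share of arms without 1 mouse, and the test between genotypes of the age change in the ratio, were added after the data were examined. The fit was also run on simulated counts with known changes, drawn without a trend by GC content or batch, and the outcome is not reported here.

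Named miRNAs are the 4 members, miR-144-3p from the seed search, and miR-101b-5p. Others are the 5 most similar in pattern to miR-101a-3p and to miR-101b-3p, and miRNAs from fixed lists. The members and lists were chosen with earlier results of these data known. No library was a copy of another among 206 pairs within groups, and replicates are libraries of mice numbered in the sample titles. Sequences and positions are from RefSeq GRCm38.p6 and GENCODE M21 of the same build, and 1679 of 1978 miRNAs (84.9%) matched a sequence. Library totals were 2656368 to 36547011 counts. CPM used the miRNA total of a library after TMM scaling, on which a floor of 3 counts is 0.0956 to 2.32 CPM, and this covers counting error only.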

Additional observations from a re-analysis of the deposited data

Results flagged for a closer look

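In the group of 9 TG mice at 3 months of age, mouse 2 lay above the others for miR-101b-3p at 2578 CPM. Mouse 7 lay above the others for miR-101a-5p at 0.711 CPM, which is 18 counts. The gap to the next mouse was 0.495 of the range for mouse 2 and 0.507 for mouse 7, just over the bound of 0.493. Of 10 sets of values examined in the groups of 5 and 9 mice these were the 2 with such a sample. Chance gives about 1 in 20 for a single set of normal values, and these sets are not independent.

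The change of the ratio of miR-101b-3p to miR-101a-3p between 3 and 6 months differed between TG and wild-type mice by 0.288 in mean log2 ratio (0.29 rounded), with an exact permutation p of 0.0408. The p rose to 0.271, with a difference of 0.14, without the 3 libraries of 3-month-old mice above 45% read GC content.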

How the results depend on the processing

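In TG mice between 3 and 6 months, miR-101b-3p was called under none of the 17 alternatives or the 20 fits that left out 1 mouse, with log2FC from -0.37 to -0.10, and miR-101a-3p kept its call except with the GC offset (-0.49). The count of called miRNAs in these mice was 293 with 1 RUVr factor and 312 with DESeq2 and 2 RUVr factors, against 99. In wild-type mice between the ages, where 1 was called, it was 46 without the 3-month libraries above 45% read GC, 25 with DESeq2, 190 with 1 RUVr factor, 219 with DESeq2 and 2 RUVr factors, 0 with upper quartile scaling, limma at either pseudocount, the GC offset or libraries of 12000000 to 26000000 counts, and 0 to 4 without 1 mouse (0 without 3-month-old mouse 2, 3 or 4 or 6-month-old mouse 7 or 8, and 4 without 3-month-old mouse 1 or 5). For genotype, where 0 were called, DESeq2 with 2 RUVr factors called 84 at 3 months, 6 at 6 months and 5 for the interaction, and 128 were called at 3 months in libraries of 12000000 to 26000000 counts. The cause of these differences was not tested.

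Some members that passed no test changed sign. In wild-type mice between the ages, miR-101b-3p (0.01) was -0.27 without the libraries above 45% GC, -0.072 in libraries of 12000000 to 26000000 counts, -0.11 without libraries under 5000000 counts, -0.00068 with RLE, -0.00066 with DESeq2, -0.0031 with DESeq2 and 2 RUVr factors, -0.056 without a filter, -0.15 with limma at either pseudocount, -0.054 with 1 RUVr factor, -0.011 with summed precursors, and -0.16 to 0.13 without 1 mouse. With the GC offset miR-101a-3p was 0.16 and miR-101c 0.036 there. For TG over wild-type at 3 months, miR-101a-3p was -0.032 and miR-101b-3p -0.022 without the libraries above 45% GC, and miR-101a-3p was 0.49 with DESeq2 and 2 RUVr factors, which called it. At 6 months, miR-101a-3p was 0.089 in libraries of 12000000 to 26000000 counts, 0.022 without libraries under 5000000 counts and -0.18 to 0.032 without 1 mouse, miR-101b-3p was -0.012 to 0.20 without 1 mouse, and miR-101c was 0.089 in libraries of 12000000 to 26000000 counts and -0.16 to 0.043 without 1 mouse. The interaction of miR-101b-3p was 0.067 without the libraries above 45% GC.

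The ratio of miR-101a arms rests on few counts, and with 5 added it largely follows the miR-101a-3p count and so the library total. In TG mice between the ages its log2 difference (-0.16) was -1.18 with an added count of 5, which passed, 0.19 with wild-type mice 1 and 2 as TG, and -0.42 to 0.073 without 1 mouse. In wild-type mice (0.38) it was -0.52 with an added count of 5, -0.22 with mice 1 and 2 left out or as TG, -0.46 without the libraries above 45% GC, and -0.011 to 0.93 without 1 mouse. The ratio of miR-101b-3p to miR-101a-3p kept direction and side in TG mice under each of 5 alternatives and 20 omissions of 1 mouse. In wild-type mice between the ages (0.23) it was 0.40 without the libraries above 45% GC and 0.16 to 0.30 without 1 mouse, and its unadjusted p fell below 0.05 without 3-month-old mouse 1 or 5 or 6-month-old mouse 2 or 3. Between genotypes it was 0.0034 at 3 months without the libraries above 45% GC, and at 6 months 0.13 to 0.17 without 1 mouse, below 0.05 without wild-type mouse 1, 5, 7, 11 or 15 or TG mouse 4, 6 or 10. The difference in age change between genotypes (0.29) was 0.14 without the libraries above 45% GC, 0.20 in libraries of 12000000 to 26000000 counts, 0.27 without wild-type mice 1 and 2, and 0.21 to 0.35 without 1 mouse, with p at or above 0.05 for the 3 subsets.

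The replicate numbers in the titles recur in all groups, and the mice were not paired by them in the main fits. The correlation of deviations of same-numbered mice exceeded 0.1 in 7 of 9 pairs of TG mice and 2 of 5 of wild-type mice between the ages. Between genotypes it did so in 2 of 5 pairs at 3 months and 9 of 11 at 6 months. In the same order of comparisons it ranged from -0.82 to 0.78, -0.62 to 0.60, -0.74 to 0.52 and -0.77 to 0.82. Mice of different numbers were not compared in this way, so whether the numbers mark a pairing was not tested. With the replicate block, TG mice gave 124 calls and a log2FC of -0.71 for miR-101a-3p (adjusted p = 0.0131 in edgeR), and wild-type mice gave 250 calls with 0.19 for miR-101a-3p and 0.061 for miR-101c. The counts of miR-101a-5p were at most 20, too few for the test across all miRNAs.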
